A study of Bos taurus with 15 samples.

Results

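The enzymes that assemble triacylglycerol from glycerol-3-phosphate and fatty acids were examined in the subcutaneous adipose tissue of the dewlap of primiparous Holstein dairy cows (label: Prim Holstein). The 10 genes listed were GPAM, AGPAT1, AGPAT2, AGPAT3, LPIN1, LPIN2, LPIN3, DGAT1, DGAT2 and MOGAT1, and they were taken by gene name from the deposited tables. Of these, 9 were found among the 13896 genes of the tables, and LPIN2 was not analysed here. Tissue was collected 4 weeks before the presumed calving (-4 weeks peripartum, wkpp), before the diets were given, and again at 1 and 16 wkpp. From -4 wkpp the cows received a low energy (LE) diet or a high energy (HE) diet, and per the methods of the study the cows sequenced had the most extreme negative energy balance (NEB) at 1 wkpp, severe (SNEB) or moderate (MNEB). The labels give only the diet and the methods only the NEB group. The LE libraries are called SNEB and the HE libraries MNEB here, an inference that neither source states. There were 3 libraries in each of 5 groups: -4 wkpp, SNEB at 1 and 16 wkpp, and MNEB at 1 and 16 wkpp. All libraries were made from total RNA after removal of ribosomal RNA, so that unspliced transcripts were sequenced with the mature ones, and reads were counted once on exons and once on the entire gene. Per the methods of the study, fat was taken from every animal in each of these weeks, so that libraries of different weeks may come from the same cow. Nothing in the labels ties a library to a cow, so the fits treated all libraries as independent, and p-values measure only the spread between these libraries.

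Most of the fat in an adipocyte is triacylglycerol, which is built in steps on a glycerol backbone. GPAM, the mitochondrial glycerol-3-phosphate acyltransferase, adds the first fatty acid and gives lysophosphatidic acid, to which the AGPAT enzymes add the second to give phosphatidic acid. The lipins (LPIN) remove the phosphate and leave diacylglycerol, and the DGAT enzymes add the last fatty acid, while MOGAT1 reaches diacylglycerol by another route, from monoacylglycerol. In dairy cows, fat is stored in adipose tissue before calving and released after it, when the energy secreted in milk exceeds the energy eaten.

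The libraries differed between the NEB groups in depth, taken here as the reads on exons of genes. Per the supplement of the study, total reads were similar in the NEB groups, and a smaller share of them mapped uniquely in MNEB. The reads on exons of genes numbered 2207801 to 7658010 in the 6 MNEB libraries, 11129042 to 14931887 in the 6 SNEB libraries and 8395757 to 14498785 at -4 wkpp. The synthetic spike-in RNAs took 3.73 to 31.0% of the exonic gene reads in MNEB and 0.240 to 1.64% in SNEB. Depth, mapping share and spike-in share therefore cannot be told apart from the NEB group. Of 9 adipocyte marker genes, none was at 0 in any group, and their summed normalized count was 70294 to 72676 at -4 wkpp, 75538 to 91170 and 45680 to 52924 for SNEB at 1 and 16 wkpp, against 22143 to 60426 and 12255 to 45299 for MNEB. Much of this sum came from FABP4, the adipocyte fatty acid binding protein, and without it the sum was 46546 to 54464 at -4 wkpp, 38724 to 41940 for SNEB at 1 wkpp and 16857 to 25031 for MNEB at 1 wkpp. The markers moved in different directions from -4 wkpp to 1 wkpp. FABP4 was 17752 to 23748 at -4 wkpp and 36814 to 49229.8 in SNEB at 1 wkpp, against 5287 to 35395 in MNEB, where 2 of the 3 libraries lay below those at -4 wkpp. LIPE, the hormone-sensitive lipase, was 3029 to 4257 at -4 wkpp, 5679 to 8132 in SNEB and 4943 to 8369 in MNEB at 1 wkpp. PNPLA2, the adipose triglyceride lipase, was 1837 to 2131 at -4 wkpp, 1628 to 2439 in SNEB and 2665 to 2957 in MNEB at 1 wkpp. LPL, the lipoprotein lipase, was 12703 to 24629 at -4 wkpp, 1183 to 6208 in SNEB and 550.1 to 1115 in MNEB at 1 wkpp. CIDEA was 801 to 1648 at -4 wkpp, 103 to 163 in SNEB and 106 to 248 in MNEB. CIDEC was 6507 to 7894 at -4 wkpp, 3702 to 6309 in SNEB and 1173 to 1649.9 in MNEB. LEP, the leptin gene, was 1011 to 1464 at -4 wkpp, 422 to 632 in SNEB and 57.6 to 177 in MNEB. The summed count of 9 skeletal muscle markers was 1180 to 4124 in MNEB and 89.0 to 361 elsewhere. TNNT3, a troponin T, was at 1175 to 3958 in MNEB and 54.3 to 340 in the other libraries, and without it the sum was 5.24 to 206 in MNEB and 3.07 to 63.8 elsewhere. The highest sums without TNNT3, 206 and 166, were those of libraries 2 and 3 of MNEB at 1 wkpp, a group in which ACTA1 reached 94.98, MYH1 51.7, MYH7 51.7, MYH2 36.9 and CKM 3.69. The summed count of 5 macrophage markers was 7619 to 13769 in SNEB, 1979 to 7013 in MNEB and 4996 to 7134 at -4 wkpp. That of 5 endothelial markers was 19341 to 23528 at -4 wkpp, against 29593 to 36740.4 in SNEB and 29835 to 63542 in MNEB at 1 wkpp, and 22301 to 34168 over both groups at 16 wkpp. That of 7 lymph node markers was 789 to 1271 at -4 wkpp, 221 to 1201 in SNEB and 72.7 to 365 in MNEB, and that of 7 markers of epidermis and hair was 577 to 1307 at -4 wkpp and 72.3 to 820 after calving. In bulk tissue, fewer cells of a type and less RNA per cell cannot be told apart. The part of these differences in the results on the enzymes was not tested.

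Values are given as normalized counts, which are reads divided by the size factor of the library, and in the order of the libraries 1, 2 and 3 of a group. The libraries were numbered within a group from the largest to the smallest size factor, and these are not the replicate numbers of the labels. A gene was called changed when limma-voom gave a Benjamini-Hochberg adjusted p-value below 0.01 both on exons and on the entire gene, with the same sign. At the filter of a mean of 10 reads per library, 8 of the 9 genes were tested in every comparison. MOGAT1 did not pass it on exons.

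GPAM, AGPAT2 and DGAT2 had their highest levels before calving, and every library after calving lay below every library at -4 wkpp, which held for 3.58% of 10514 genes. For GPAM, the normalized exonic count at -4 wkpp was 19889, 14413 and 19626. It was 463, 1507 and 732 in SNEB at 1 wkpp and 503, 1137 and 1384 in MNEB at 1 wkpp. At 16 wkpp it was 473, 626 and 4332 in SNEB, against 1433, 503 and 1371 in MNEB. Library 3 of SNEB at 16 wkpp was the highest after calving, and the other 11 libraries after calving lay between 463 and 1507. The group means were 17976 ± 3089 (SD, n = 3) at -4 wkpp and 901 to 1810 in the 4 groups after calving, whose libraries overlapped.

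AGPAT2 is the acyltransferase of the second step whose loss in man causes a near absence of fat tissue. Its normalized exonic count was 4994, 7306 and 4585 at -4 wkpp. At 1 wkpp it was 1008, 1504 and 772 in SNEB, against 432, 437 and 476 in MNEB. In week 16 it was 727, 428 and 1052 in SNEB, against 824, 369 and 457 in MNEB. The libraries of MNEB at 1 wkpp lay close together, and all of them lay below the SNEB libraries of the same week. The means were, from the highest to the lowest, those of -4 wkpp (5628 ± 1467, SD, n = 3), SNEB at 1 wkpp (1095 ± 374), SNEB at 16 wkpp (736 ± 312), MNEB at 16 wkpp (550.1 ± 241) and MNEB at 1 wkpp (449 ± 24.1). Only the first of these steps separated neighbouring groups, and the libraries of the others overlapped.

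DGAT2, a diacylglycerol acyltransferase of the last step, had the widest range of the 8 genes tested. Its normalized exonic count was 25924, 20582 and 25354 at -4 wkpp. At 1 wkpp it was 359, 2548 and 731 in SNEB, against 463, 339 and 421 in MNEB. At 16 wkpp it was 463, 396 and 2159 in SNEB, against 1785, 496 and 900.2 in MNEB. Library 2 of SNEB at 1 wkpp, library 3 of SNEB at 16 wkpp and library 1 of MNEB at 16 wkpp were the highest after calving. Its exonic reads were between 114 and 44856 per library. After calving the neighbouring groups in the order of means, from 1213 in SNEB at 1 wkpp to 408 in MNEB at 1 wkpp, overlapped.

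**Figure D1:**
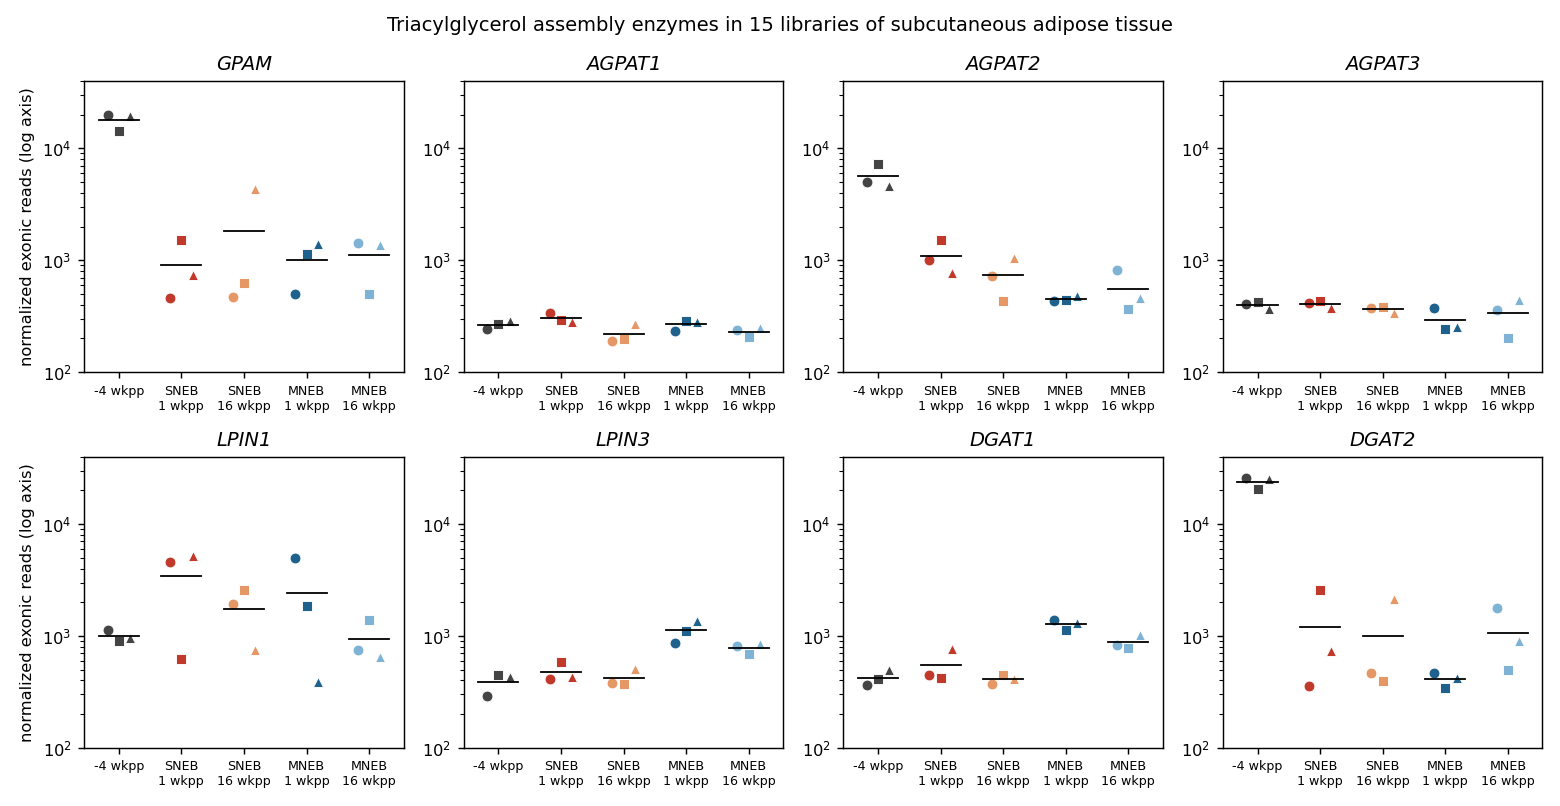
Normalized exonic count of 8 triacylglycerol assembly genes in each of the 15 libraries, on a log axis, by group. Circles, squares and triangles stand for libraries 1, 2 and 3 of a group and bars for group means. GPAM, AGPAT2 and DGAT2 are highest at -4 wkpp, DGAT1 and LPIN3 are highest in MNEB, and LPIN1 spreads widely within groups at 1 wkpp.

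DGAT1 carries out the same last step as DGAT2 but belongs to an unrelated protein family. Its normalized exonic count was 361, 408 and 496 at -4 wkpp. In SNEB it was 449, 424 and 767 at 1 wkpp and 375, 449 and 412 at 16 wkpp. In MNEB it was 1380.2, 1134 and 1303 at 1 wkpp and 824, 787 and 1012 at 16 wkpp. On exons every MNEB library lay above each of the 9 others, as for 9.71% of all genes, although library 3 of SNEB at 1 wkpp came close. On the entire gene that library, at 939.7, lay above library 1 of MNEB at 16 wkpp, at 922.5. The means were 1273 ± 126 and 874 ± 120.3 in MNEB at 1 and 16 wkpp, 547 ± 191 and 412 ± 37.4 in SNEB, and 422 ± 68.8 at -4 wkpp (SD, n = 3 each).

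LPIN3, a phosphatidate phosphatase, followed the same order at the top. Its normalized exonic count was 291, 448 and 432 at -4 wkpp. In SNEB it was 411, 585 and 426 at 1 wkpp and 379.8, 374 and 506 at 16 wkpp. In MNEB it was 871, 1115 and 1369.6 at 1 wkpp and 819, 694 and 840.4 at 16 wkpp. The 6 MNEB libraries again lay above the 9 others, as for 9.71% of all genes, and the libraries of MNEB at 1 wkpp lay above those of MNEB at 16 wkpp. These libraries were also the shallow ones, with 305 to 1318 exonic reads of DGAT1 and 269 to 834 of LPIN3.

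LPIN1, the lipin best known in adipocytes and also a regulator of transcription, spread widely within the groups at 1 wkpp. Its normalized exonic count was 1120.0, 895 and 962 at -4 wkpp. At 1 wkpp it was 4570.0, 616 and 5152 in SNEB, against 4952, 1864 and 388 in MNEB. In week 16 it was 1918, 2562 and 746 in SNEB, against 749, 1394 and 653 in MNEB. The highest library was 1.25 times the lowest at -4 wkpp, 8.36 times in SNEB at 1 wkpp and 12.8 times in MNEB at 1 wkpp. At 16 wkpp it was 3.43 times in SNEB and 2.14 times in MNEB. These were below the values of GPAM, 9.15 and 2.85, and of DGAT2, 5.45 and 3.60. All groups that were neighbours in the order of means, from 3446 in SNEB at 1 wkpp to 932 in MNEB at 16 wkpp, overlapped.

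AGPAT1 and AGPAT3, acyltransferases of the same family as AGPAT2, had low and even levels. Over the 15 libraries the normalized exonic count was 191 to 337 for AGPAT1 and 201 to 441 for AGPAT3. Groups that were neighbours in the order of means overlapped for both genes. In MNEB these counts rested on 76 to 241 and 69 to 366 exonic reads.

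MOGAT1 had 20 exonic reads in all over the 15 libraries, with 0 to 7 per library. In 6 libraries it had none, and a count of 0 allows up to 3 reads in a library, by counting error only. On the entire gene it had 0 to 63 reads per library and 273 in all, of which libraries 2 and 3 of MNEB at 1 wkpp held 59 and 47 and library 3 at -4 wkpp held 63. On the entire gene MOGAT1 passed the filter in 5 of the 6 comparisons, with wide intervals and no adjusted p-value below the threshold. The log2 fold change was -2.69 with an interval of -6.41 to 1.03 between -4 wkpp and SNEB at 1 wkpp, and 0.37 with an interval of -3.70 to 4.44 between -4 wkpp and MNEB at 1 wkpp.

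The comparison of -4 with 1 wkpp asked what changed over calving in each NEB group. Calving, lactation and the diets lie between these weeks and cannot be told apart. Both NEB groups were compared with the same 3 libraries at -4 wkpp. In MNEB, 4 of the 8 genes tested were called, of which GPAM, AGPAT2 and DGAT2 fell and DGAT1 rose. Of the 10394 genes tested in both analyses, 193 were called, a share of 1.86%, with 0.818% higher and 1.04% lower after calving. The count of all genes called moved with the setting. It was 349 with total count scaling, 218 of them higher after calving, and 1082 with all 15 libraries in a fit, 697 of them higher, so that under both settings most calls were higher and not lower. It was 207 without library 1 of MNEB at 1 wkpp and 0 to 5 without any of the other 5 libraries. The log2 fold change of DGAT2 was -5.86 ± 0.23 (SE, n = 3 and 3) on exons, with an adjusted p-value of 7.73e-07 by limma-voom, the rank 2 among the genes of the exonic analysis, and of -5.15 on the entire gene (adjusted p = 0.00124). GPAM fell 19.9-fold, with a log2 fold change of -4.32 ± 0.35 on exons (limma-voom adjusted p = 7.69e-05) and -4.06 on the entire gene (adjusted p = 0.00497). AGPAT2 fell 12.4-fold, with a log2 fold change of -3.63 ± 0.24 on exons (limma-voom adjusted p = 2.79e-05) and -3.08 on the entire gene (adjusted p = 0.00625). DGAT1 rose 3.02-fold, with a log2 fold change of 1.60 ± 0.21 on exons (limma-voom adjusted p = 0.000582) and 1.55 on the entire gene (adjusted p = 0.0091). The final step thus held opposite changes in MNEB, DGAT2 lower and DGAT1 higher. On exons DGAT1 was higher in every MNEB library of both weeks than in any other library. In SNEB its log2 fold change was 0.34 (-0.23 to 0.91). The MNEB libraries at 1 wkpp had 2207801 to 7171953 reads on exons of genes, against 8395757 to 14498785 at -4 wkpp. Spike-ins equalled 3.88 to 31.0% of these reads, against 0.589 to 1.94% at -4 wkpp. The part of these library differences in the 4 calls was not tested.

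LPIN3 had a log2 fold change of 1.5 ± 0.25 between -4 wkpp and MNEB at 1 wkpp and passed on exons (limma-voom adjusted p = 0.00172) but not on the entire gene (adjusted p = 0.0181), so it was not called. On exons alone, 5 of 8 genes passed, where 16.6% of all genes did. The 3 others did not pass, with 95% intervals of the log2 fold change of -0.51 to 0.47 for AGPAT1, -0.97 to 0.13 for AGPAT3 and -0.90 to 2.21 for LPIN1. The libraries of the groups did not overlap for 5 of 8 genes, where 46.8% of all genes had no overlap. The median size of the log2 fold change on exons, regardless of sign, was 1.55 over the 8 genes and 0.60 over all genes tested.

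When a library was left out, most calls in MNEB were lost on the entire gene and none on exons. Without library 1, 2 or 3 at -4 wkpp, 0 genes were called. Without library 2 or 3 of MNEB at 1 wkpp, only DGAT2 was called, and without library 1 all but DGAT1 were. In the exonic analysis under these omissions, the highest adjusted p-value by limma-voom was 0.000929 for GPAM, 0.000221 for AGPAT2, 0.00498 for DGAT1 and 3.36e-05 for DGAT2. The log2 fold changes stayed between -4.62 and -3.87 for GPAM, -3.78 and -3.42 for AGPAT2, 1.48 and 1.71 for DGAT1, and -6.03 and -5.74 for DGAT2.

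In SNEB, GPAM was the only one of the 8 genes called between -4 and 1 wkpp. It was among 4 genes called of 10585 tested in both analyses, a share of 0.0378%, all 4 lower at 1 wkpp (0.0378%) and none higher (0.0%). Over all genes 23 were called with all 15 libraries in a fit, 0 with total count or upper quartile scaling, 89 without library 2 of SNEB at 1 wkpp, 33 of them higher, and 0 without any of the other 5 libraries. The other 3 were FASN, the fatty acid synthase, ACACA, the acetyl-CoA carboxylase, and CIDEA, a lipid droplet protein, with log2 fold changes of -4.98, -3.02 and -3.26 on exons. GPAM fell 22.3-fold, with a log2 fold change of -4.48 ± 0.41 (SE, n = 3 and 3) on exons (limma-voom adjusted p = 0.00397) and -4.26 on the entire gene (adjusted p = 0.00796). AGPAT2 had a log2 fold change of -2.38 ± 0.28 and passed on exons (limma-voom adjusted p = 0.00644) but not on the entire gene (adjusted p = 0.0332). DGAT2 had a log2 fold change of -4.77 ± 0.64, with an interval of -6.24 to -3.30, and missed the threshold in both analyses (limma-voom adjusted p = 0.0108 and 0.0215). On exons alone 2 of 8 genes passed, where 0.495% of all genes did. The libraries of GPAM, AGPAT2 and DGAT2 did not overlap between the groups, which held for 19.7% of all genes.

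The number of the 8 genes called changed with each library left out. Library 2 of SNEB at 1 wkpp had 2548 normalized reads of DGAT2 against 359 and 731 in the other libraries of its group, and the least LPIN1 of them. Without it DGAT2 was called, at a log2 fold change of -5.54 (limma-voom adjusted p = 0.000102 on exons), as were GPAM, at -4.93, and LPIN1, higher at 1 wkpp at 2.30 (adjusted p = 0.000447 on exons and 0.00172 on the entire gene). Without any other library of the comparison, 0 genes were called, and the adjusted p-value of GPAM by limma-voom reached 0.0265 on exons and 0.0980 on the entire gene. With all libraries, LPIN1 had a log2 fold change of 1.31 with an interval of -0.27 to 2.89. The intervals were -0.23 to 0.91 for DGAT1, -0.21 to 0.80 for LPIN3, -0.18 to 0.59 for AGPAT1 and -0.34 to 0.37 for AGPAT3, and none of these 4 genes passed in either analysis.

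**Figure D2:**
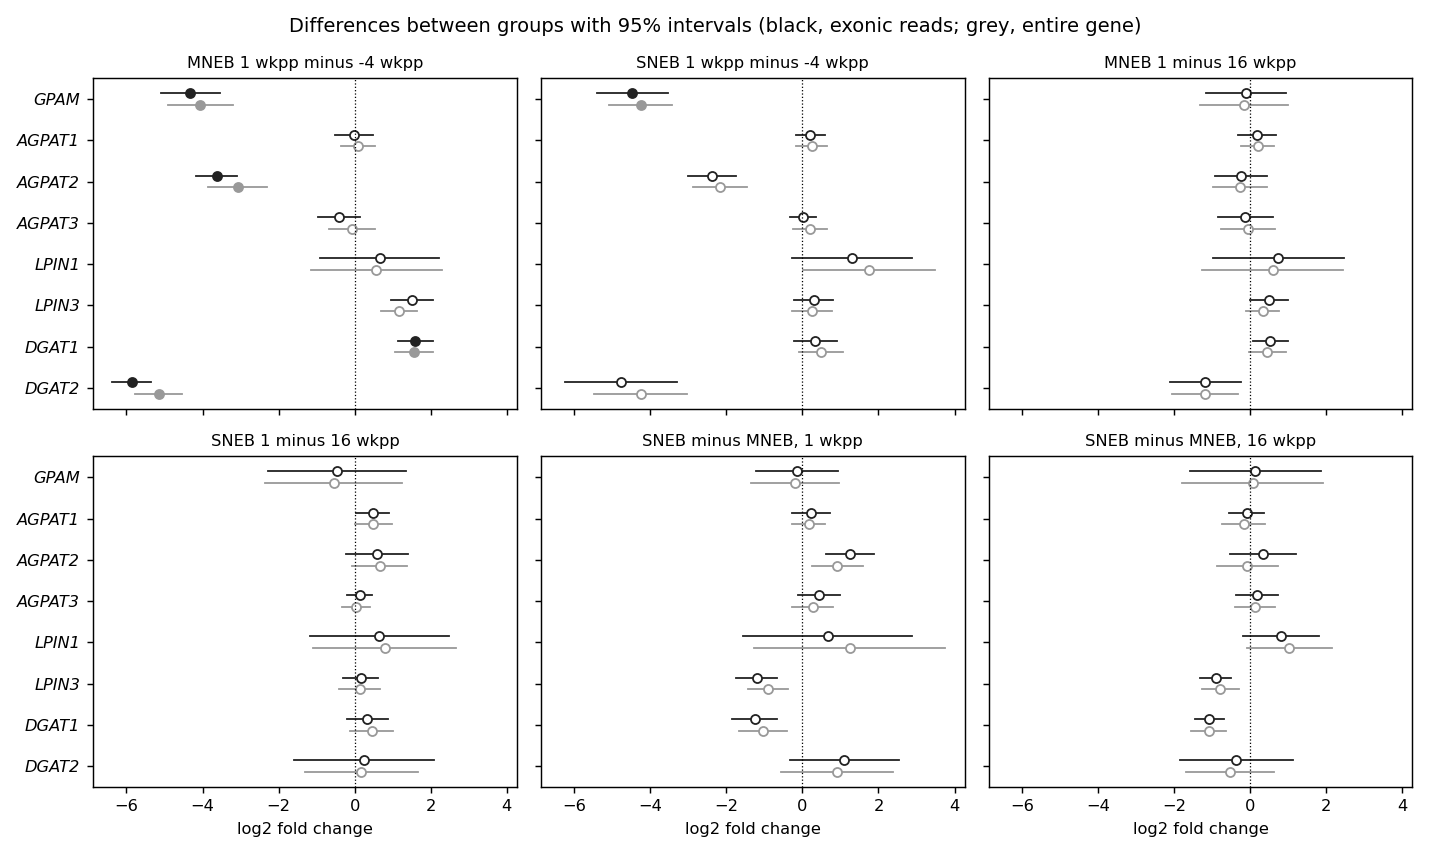
Log2 fold change of 8 triacylglycerol assembly genes in the 6 comparisons of 3 libraries with 3, on exons (black) and on the entire gene (grey), with 95% intervals as lines. Filled points are genes called in both analyses: GPAM, AGPAT2, DGAT1 and DGAT2 between -4 wkpp and MNEB at 1 wkpp and GPAM between -4 wkpp and SNEB at 1 wkpp.

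Ratios of reads within a library do not depend on the depth or on the size factors. They depend on the lengths of the genes compared, so only their change is described. The ratio of exonic reads of DGAT2 to DGAT1 was 71.9, 50.4 and 51.1 at -4 wkpp. At 1 wkpp it was 0.800, 6.01 and 0.954 in SNEB, against 0.335, 0.299 and 0.323 in MNEB. At 16 wkpp it was 1.24, 0.881 and 5.24 in SNEB, against 2.17, 0.630 and 0.890 in MNEB. The ratio was lower in all 12 libraries after calving than in the 3 at -4 wkpp, and lowest in the 3 libraries of MNEB at 1 wkpp. The ratio of AGPAT2 to AGPAT1 was 20.8, 27.3 and 16.1 at -4 wkpp. It was 3.00, 5.13 and 2.77 in SNEB, against 1.86, 1.52 and 1.70 in MNEB at 1 wkpp. In week 16 it was 3.81, 2.15 and 3.95 in SNEB, against 3.48, 1.79 and 1.85 in MNEB. All 12 libraries after calving lay below those at -4 wkpp.

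The ratio of LPIN1 to LPIN3 did not order the groups in this way. It was 3.85, 2.00 and 2.22 at -4 wkpp. At 1 wkpp it was 11.1, 1.05 and 12.1 in SNEB, against 5.68, 1.67 and 0.283 in MNEB. At 16 wkpp it was 5.05, 6.84 and 1.48 in SNEB, against 0.914, 2.01 and 0.777 in MNEB. The libraries after calving lay on both sides of those at -4 wkpp.

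**Figure D3:**
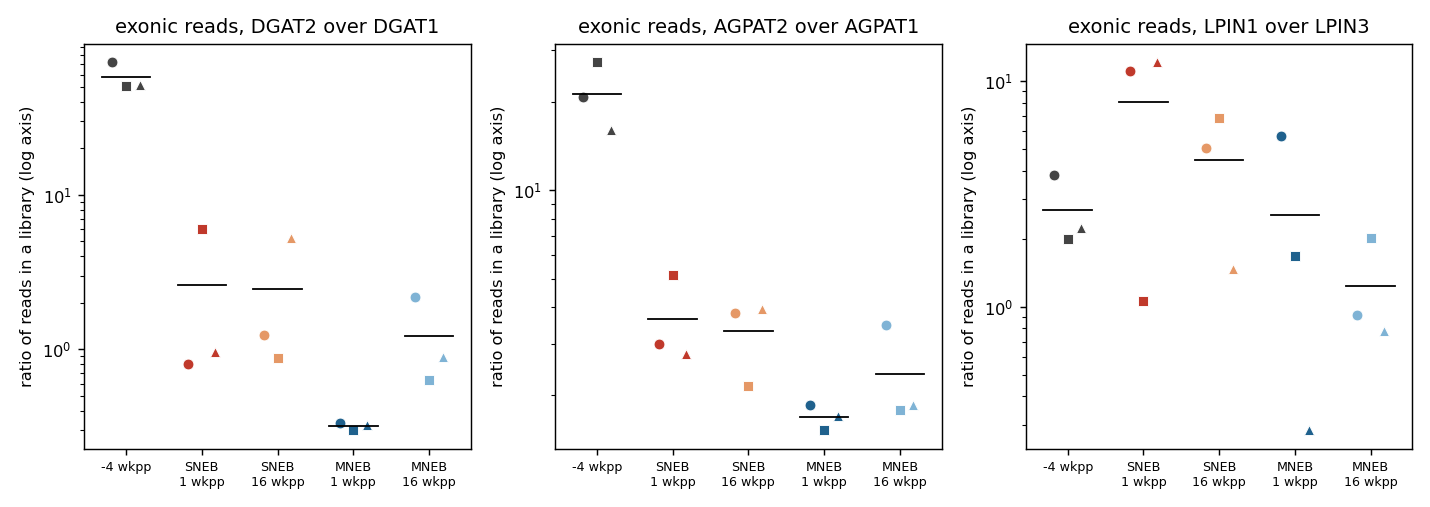
Ratios of exonic reads within each of the 15 libraries on log axes, by group: DGAT2 over DGAT1, AGPAT2 over AGPAT1 and LPIN1 over LPIN3, with symbols for libraries 1, 2 and 3. DGAT2 over DGAT1 is 50.4 to 71.9 at -4 wkpp and 0.299 to 0.335 in MNEB at 1 wkpp, with all libraries after calving below those at -4 wkpp, and LPIN1 over LPIN3 spreads on both sides of the libraries at -4 wkpp.

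Each gene was also set against PLIN1, the perilipin of the adipocyte lipid droplet, in the same library. PLIN1 is 1 of the 9 adipocyte markers and its own level differed between groups, at 13303 to 17854 normalized counts at -4 wkpp, 20119 to 25582 and 10975 to 17768 in SNEB at 1 and 16 wkpp, and 3005 to 11434 in MNEB. Per exonic read of PLIN1, DGAT2 had 1.15 to 1.91 reads at -4 wkpp and 0.0163 to 0.30 in the 12 libraries after calving. GPAM had 0.807 to 1.48 before and 0.0210 to 0.456 after calving. AGPAT2 had 0.345 to 0.409 before and 0.0302 to 0.152 after calving. For all 3 genes, no library after calving reached the range at -4 wkpp against this marker. PLIN1 was the only marker used in this way. Ratios to LPL, CIDEA, CIDEC or LEP, which were themselves lower after calving, were not formed. Since PLIN1 was low in MNEB, ratios to it do not bear on the higher levels of DGAT1 and LPIN3 there.

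SNEB and MNEB were compared at the same week, as groups of cows with a more and a less severe energy deficit. Since the groups were labelled by diet and their match with severity was inferred, diet and severity cannot be told apart. At 1 wkpp, 0 of the 8 genes were called, and 0 of 10346 genes in all (0.0%) by limma-voom, although 1919 passed an unadjusted p-value of 0.05 on exons and on the entire gene. Over all genes 336 were called with all 15 libraries in a fit, 356 without library 1 of MNEB at 1 wkpp, and 0 without any of the other 5 libraries. On exons alone 0 of the 8 passed and 1.68% of all genes did. AGPAT2 was higher in SNEB in 3 of 3 libraries, with a log2 difference of 1.25 and an interval of 0.63 to 1.88 (limma-voom adjusted p = 0.0193 on exons and 0.14 on the entire gene). DGAT1 was lower in SNEB in 3 of 3 libraries, with a log2 difference of -1.25 (-1.85 to -0.66, limma-voom adjusted p = 0.0167 and 0.0989). LPIN3 was likewise lower in 3 of 3 libraries, with a log2 difference of -1.2 (-1.74 to -0.66, limma-voom adjusted p = 0.0142 and 0.0944). These 3 genes, of 8, were those without overlap between the groups, against 39.5% of all genes. The intervals of the log2 difference were wider for the genes that varied within groups, at -0.33 to 2.54 for DGAT2, -1.57 to 2.89 for LPIN1 and -1.23 to 0.93 for GPAM.

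At 16 wkpp, 0 of the 8 genes were called between SNEB and MNEB, where 3.71% of 10259 genes were, 1.08% higher and 2.63% lower in SNEB. The 381 calls over all genes became 34 to 127 with a library left out. DGAT1 had a log2 difference of -1.07 ± 0.16 (SE, n = 3 and 3) and passed on exons (limma-voom adjusted p = 0.00262) but not on the entire gene (adjusted p = 0.0119). LPIN3 had a log2 difference of -0.91 ± 0.18 and also passed on exons alone (limma-voom adjusted p = 0.00763 and 0.0465). On exons 2 of 8 genes and 10.1% of all genes passed, and 2 of 8 genes and 43.8% of all genes had no overlap. The median size of the log2 difference was 0.35 over the 8 genes and 0.45 over all genes. The interval was -1.58 to 1.86 for GPAM, -1.85 to 1.12 for DGAT2, -0.52 to 1.2 for AGPAT2 and -0.19 to 1.81 for LPIN1.

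The MNEB libraries also differed from the others in where the reads of DGAT1 and LPIN3 fell. The share of reads of the entire gene that lay outside exons was 4.12 to 16.0% for DGAT1 in the 6 MNEB libraries and 16.5 to 29.1% in the 9 others. For LPIN3 it was 7.94 to 22.9% in MNEB and 26.1 to 40.4% in the others. The ranges did not overlap for either gene, and the share was lower in all 6 MNEB libraries than in the 9 others for 11.9% of 10293 genes. Over all genes, the reads of the entire gene were 1.62 to 2.08 times the exonic reads in MNEB and 1.92 to 2.44 times in SNEB, which overlapped. The part of this shift in the exonic differences was not tested. DGAT2 had 26.4 to 58.5% of its reads outside exons after calving and 19.4 to 24.8% at -4 wkpp, and AGPAT2 had 11.0 to 44.8% after and 6.2 to 10.5% before. GPAM had 22.2 to 37.5% after and 16.4 to 26.9% before, which overlapped. How many of all genes had no overlap in this share between the libraries before and after calving was not counted.

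**Figure D4:**
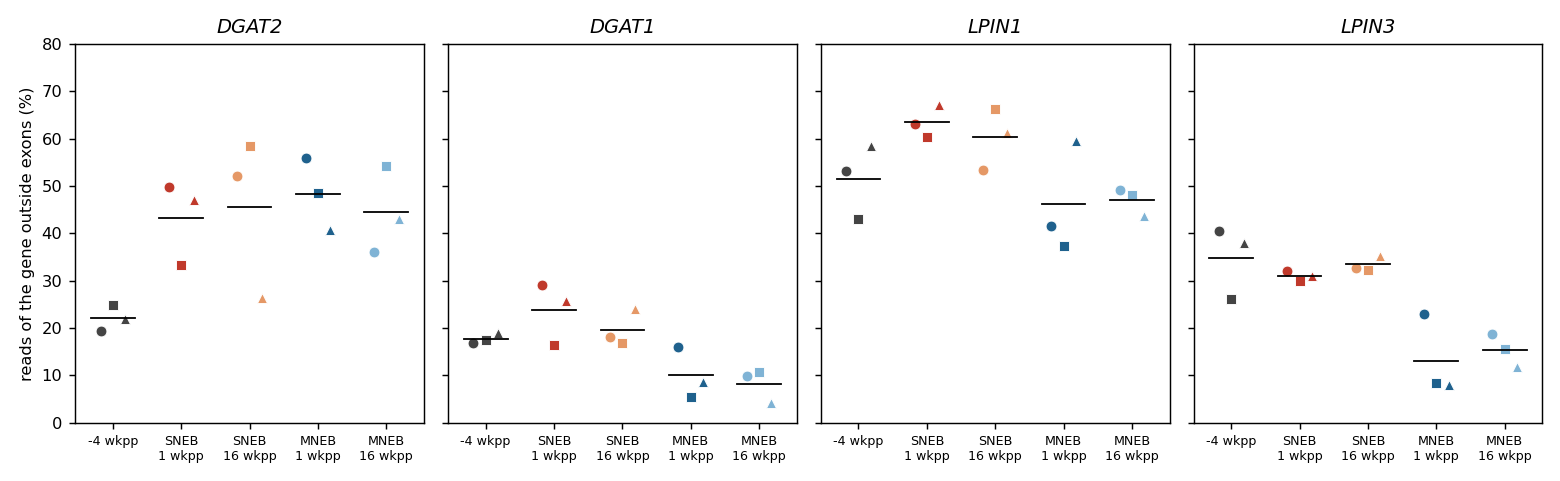
Share of the reads of the entire gene that lay outside its exons, in percent, in each of the 15 libraries by group, with symbols for libraries 1, 2 and 3. DGAT1 and LPIN3 have their lowest shares in the 6 MNEB libraries, at 4.12 to 16.0% and 7.94 to 22.9%, and DGAT2 has higher shares after calving than at -4 wkpp.

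The comparison of 1 with 16 wkpp addressed recovery during lactation. In MNEB, 0 of the 8 genes were called, and 0 of 9865 genes in all (0.0%) by limma-voom, with 788 genes at an unadjusted p-value below 0.05 in both analyses. DGAT2 was lower at 1 than at 16 wkpp in 3 of 3 libraries, with a log2 fold change of -1.18 and an interval of -2.12 to -0.25 (limma-voom adjusted p = 0.30). DGAT1, at 0.53 (0.08 to 0.99), and LPIN3, at 0.48 (-0.02 to 0.99), had all exonic values at 1 wkpp above those at 16 wkpp, with adjusted p-values by limma-voom of 0.318 and 0.385. On the entire gene the libraries of both overlapped (limma-voom adjusted p = 0.439 and 0.497). Thus 3 of 8 genes had no overlap on exons, where 20% of all genes had none. In SNEB, 0 of the 8 genes and 0 of 10517 genes in all (0.0%) were called by limma-voom, with 479 at an unadjusted p-value below 0.05 in both analyses. AGPAT1 was the 1 gene of 8 without overlap on exons, at a log2 fold change of 0.47 (0.04 to 0.90, limma-voom adjusted p = 0.685), where 12.1% of all genes had none. On the entire gene its libraries overlapped. The intervals were -2.29 to 1.35 for GPAM, -1.60 to 2.08 for DGAT2 and -1.17 to 2.48 for LPIN1.

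The difference between SNEB and MNEB in the change from 1 to 16 wkpp was tested in a fit of 12 libraries taken as independent. None of the 8 genes was called and 0 of 10305 genes in all (0.0%) by limma-voom, with 291 at an unadjusted p-value below 0.05 in both analyses and none of the 8 below it on exons. DGAT2 had a difference of log2 fold changes of 1.45 with an interval of -0.82 to 3.72 (limma-voom adjusted p = 0.99). AGPAT2 had a difference of 0.90 (-0.22 to 2.02). At 16 wkpp no library of GPAM, AGPAT2 or DGAT2 in either NEB group had returned to the range at -4 wkpp.

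The library with the most GPAM had the least LPIN1 in 3 of the 4 groups after calving, and the full order of the libraries was opposite only in MNEB at 1 wkpp. In SNEB at 1 wkpp, library 2 had the most GPAM, DGAT2 and AGPAT2 and the least LPIN1, at 616 against 4570 and 5152. In SNEB at 16 wkpp, library 3 had the most GPAM, DGAT2 and AGPAT2 and the least LPIN1, at 746 against 1918 and 2562. In MNEB at 1 wkpp, library 3 had the most GPAM and AGPAT2 and the least LPIN1, at 388 against 4952 and 1864, whereas library 1 had the most DGAT2 and the most LPIN1. In MNEB at 16 wkpp, library 1 had the most GPAM, with 749 normalized reads of LPIN1, and library 3 had the least LPIN1. The libraries at -4 wkpp, with the most GPAM of all, had 895 to 1120 normalized reads of LPIN1, which lay within the range of the libraries after calving. Over the 15 libraries, Pearson's r of the log2 levels of LPIN1 was -0.495 with GPAM, -0.402 with DGAT2 and -0.246 with AGPAT2, given as a description, since the libraries share groups and differ in depth. Counted from the highest r with GPAM, LPIN1 had rank 7121 among 8025 genes, so many genes had a lower r. The order within groups was not counted for other pairs of genes.

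**Figure D5:**
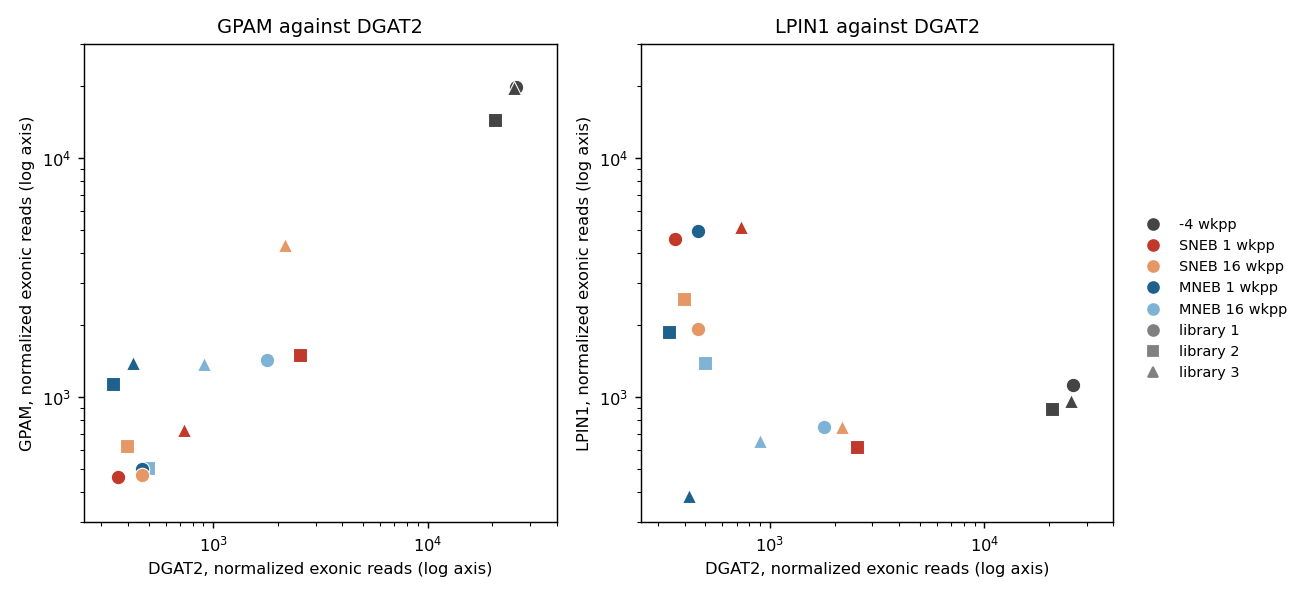
Normalized exonic counts of GPAM and of LPIN1, each against DGAT2, in the 15 libraries, on log axes, coloured by group with symbols for libraries 1, 2 and 3. The libraries at -4 wkpp stand apart with the most GPAM and DGAT2, while LPIN1 spans 388 to 5152 among the libraries after calving.

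Genes whose levels resembled those of these enzymes over the 15 libraries were ranked by Pearson's r among 8025 genes, as a description. For GPAM the most alike were ACSS2, the cytosolic acetyl-CoA synthetase (r = 0.984), GPD1, the glycerol-3-phosphate dehydrogenase (0.966), and GPT2, the mitochondrial alanine transaminase (0.959). For DGAT2 they were ACSS2 (0.979), GPD1 (0.957) and MLEC, a lectin of the endoplasmic reticulum (0.953). For AGPAT2 they were MSRB1, a methionine sulfoxide reductase (0.990), ELOVL6, a fatty acid elongase (0.955), and C18H19orf12 (0.940). The 3 enzymes also resembled each other, with r = 0.949 between GPAM and DGAT2, 0.939 between AGPAT2 and DGAT2, and 0.875 between GPAM and AGPAT2. The 15 libraries share groups and differ in depth, and those at -4 wkpp lie far above the others for the 3 enzymes. For LPIN1 the most alike were RDH10, a retinol dehydrogenase (0.927), AKAP10, an anchoring protein of protein kinase A (0.913), and STK38L, a protein kinase (0.887).

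Other genes of glycerolipid synthesis were read from a list of 55 names, of which 39 were in the tables and 34 or 35 were tested. Between -4 wkpp and MNEB at 1 wkpp, 1 was called higher and 2 lower at 1 wkpp of 35 tested, where 0.818% of all genes were called higher and 1.04% lower. GPD1, which makes glycerol-3-phosphate, had normalized exonic counts of 5079, 5002 and 5280.3 at -4 wkpp and 929, 1246 and 1133 in MNEB at 1 wkpp. It fell 4.72-fold (log2 fold change -2.24 ± 0.20, limma-voom adjusted p = 0.000111 on exons and 0.00497 on the entire gene). ACSL1, which activates fatty acids to acyl-CoA, had 16695, 9867 and 13553 at -4 wkpp and 2329, 1558 and 1277 in MNEB at 1 wkpp. It fell 7.86-fold (log2 fold change -2.97 ± 0.29, limma-voom adjusted p = 0.000155 and 0.00965). Both supply substrates of the step of GPAM. DGKD, a kinase that turns diacylglycerol back into phosphatidic acid, had 325, 409.7 and 437 at -4 wkpp and 1473, 1517 and 1960.3 in MNEB at 1 wkpp. It rose 4.19-fold (log2 fold change 2.07 ± 0.21, limma-voom adjusted p = 0.000189 and 0.00832).

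None of these genes was called between -4 wkpp and SNEB at 1 wkpp. GPD1, at 760.5, 1346 and 1026, and ACSL1, at 2119.7, 2762 and 3096, also lay below all libraries at -4 wkpp, where 19.7% of all genes had no overlap. Between SNEB and MNEB at 16 wkpp, 2 of 34 genes were called, both lower in SNEB, where 3.71% of all genes were called and 2.63% were lower. DGKD was 450.3, 493 and 391 in SNEB, against 1128, 1363 and 1471 in MNEB (log2 difference -1.56, limma-voom adjusted p = 0.000804 on exons and 0.00696 on the entire gene). DGKQ, another diacylglycerol kinase, was 173, 194 and 192 in SNEB, against 611, 586 and 721 in MNEB (log2 difference -1.77, limma-voom adjusted p = 0.000545 and 0.00287). In the other comparisons, of 1 with 16 wkpp and of SNEB with MNEB at 1 wkpp, none was called.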

How the data were processed

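The authors sequenced 15 libraries of dewlap fat, 3 in each of 5 groups, prepared with a directional total RNA kit. Per the methods of the study and the submitters' processing notes, reads were demultiplexed with bcl2fastq 2.15.0, trimmed with cutadapt 1.3, aligned with TopHat2 to bosTau8, counted with HTSeq and compared with DESeq2, once on exons and once on the entire gene. The 6 deposited tables, one per comparison of 3 libraries with 3, hold 13988 rows (13896 genes, 92 spike-ins). The mean normalized count of each gene was made by the authors as the mean over 6 libraries of counts divided by DESeq2 size factors. The other columns hold the authors' own fold changes, standard errors, test statistics and p-values, and were not used. No column belonged to other samples (0).

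Each library enters 2 or 3 tables and the means are given to 15 significant digits, so the whole read counts of the 15 libraries were recovered from the means of the 6 tables by lattice reduction. A solution was kept when the expected number of other solutions was at most 10 to the power -8. Counts were recovered for 13895 of 13896 genes and 87 of 92 spike-ins in each analysis, without COL3A1. The 87 spike-ins had the same counts in all libraries from both analyses, and size factors recomputed from the counts differed from the deposited ones by at most 0.038% on exons and 0.072% on the entire gene. The recovery and the fits were tested on simulated data. Groups come from the table headers, and libraries were numbered within a group by size factor.

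Comparisons were fitted with limma-voom (limma 3.58.1, R 4.3.3) over all genes with a mean of at least 10 reads, on the libraries compared, with median-of-ratios size factors. The test of the difference between NEB groups used 12 libraries. P-values were adjusted by Benjamini-Hochberg over all genes tested, and a call needed an adjusted p-value below 0.01 and an equal sign on exons and on the entire gene. Levels were divided by size factors over all 15 libraries. Likeness was Pearson's r of log2(normalized count + 1), over genes with a mean of at least 100, for GPAM, AGPAT2, LPIN1 and DGAT2, an enzyme for each step, with the 3 most alike named. Intervals are at 95%, and a count of 0 was read as allowing 3 reads. The members and lists were chosen with earlier results of these data known, and all members and all called genes of the glycerolipid list are named. Alternatives were another fit, scaling, filter, threshold or feature, and the omission of libraries. Depth per library is given with the results, and neither sequences nor coordinates were used. Scripts ran under Python 3.11.15, numpy 2.4.6, pandas 2.3.3 and matplotlib 3.10.9.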

Additional observations from a re-analysis of the deposited data

How the results depend on the processing

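Between -4 wkpp and MNEB at 1 wkpp, leaving out a library gave 0 to 3 genes called instead of 4, and no other alternative moved that count by over 1.5 times. Between -4 wkpp and SNEB at 1 wkpp, where 1 gene was called, the count was 2 with all 15 libraries in a fit, 2 on exons alone, 3 at an adjusted p-value below 0.05, 0 with upper quartile or total count scaling, and 0 to 3 with a library left out. Library 2 of SNEB at 1 wkpp, library 3 of SNEB at 16 wkpp and library 1 of MNEB at 16 wkpp stood apart, and without them, an alternative chosen after the data were seen, 3 genes were called. Between SNEB and MNEB at 1 wkpp, 1 gene was called instead of 0 with all 15 libraries in a fit. At 16 wkpp it was 1 with all 15 libraries, 1 with total count scaling, 2 at an adjusted p-value below 0.05 and 2 on exons alone. In the comparisons of 1 with 16 wkpp, of SNEB with MNEB and of the changes, 0 genes were called with any library left out. The causes of these moves were not tested. Total count scaling shifted the median log2 fold change of all genes by 0.13 (MNEB) and 0.14 (SNEB) against -4 wkpp, and by under 0.1 in the other comparisons and with upper quartile scaling.

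Of 936 alternative log2 fold changes of single genes, 840 kept their direction and side of the threshold, 19 newly passed, 28 no longer passed and 49 changed sign, none of them of a called gene. The sign changed for AGPAT1 between -4 wkpp and MNEB (0.000621 and 0.000623 with limma-trend at pseudocounts of 0.5 and 1, 0.10 with total count scaling, 0.085 on the entire gene) and for AGPAT2 at 16 wkpp between NEB groups (-0.078 on the entire gene). In the difference of the changes it changed on the entire gene for DGAT1 (0.000231) and LPIN1 (0.14). Without the 3 libraries that stood apart it changed for AGPAT2 (0.12) and GPAM (0.13) in MNEB from 1 to 16 wkpp, GPAM in SNEB from 1 to 16 wkpp (0.084), GPAM between NEB groups at 16 wkpp (-0.60), AGPAT3 between -4 wkpp and SNEB (-0.021), and DGAT1 (0.016) and LPIN1 (0.43) in the difference of the changes. With a library left out, the values that changed sign ranged as follows. For AGPAT1 from -4 wkpp to MNEB they were -0.090 to 0.077. For AGPAT2 in MNEB from 1 to 16 wkpp they were -0.48 to 0.12. For AGPAT3 they were -0.42 to 0.046 in MNEB from 1 to 16 wkpp, -0.088 to 0.31 between NEB groups at 16 wkpp and -0.039 to 0.076 from -4 wkpp to SNEB. For DGAT2 they were -1.14 to 0.14 between NEB groups at 16 wkpp and -0.54 to 1.02 in SNEB from 1 to 16 wkpp. For GPAM they were -0.61 to 0.33 in MNEB and -1.06 to 0.54 in SNEB from 1 to 16 wkpp, -0.88 to 0.73 and -0.62 to 0.24 between NEB groups at 16 and 1 wkpp, and -0.88 to 0.73 in the difference of the changes. For LPIN1 they were -0.21 to 1.60 from -4 wkpp to MNEB, -0.043 to 1.74 in MNEB from 1 to 16 wkpp, -0.28 to 1.66 between NEB groups at 1 wkpp and -1.07 to 0.85 in the difference of the changes. For LPIN3 in SNEB from 1 to 16 wkpp they were -0.0063 to 0.30.

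No paired analysis was possible because the recovered libraries carry no replicate number of the labels and nothing ties a library to a cow. The depth of the MNEB libraries limits the genes with few reads, AGPAT1, AGPAT3 and MOGAT1 among them.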
